A study of Mus musculus with 32 samples.

Results

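The receptor for glucocorticoid hormones and 8 genes tied to its action were followed across 32 RNA sequencing libraries of mouse lung. The genes were chosen by symbol as Nr3c1, Hsd11b1, Fkbp5, Zbtb16, Klf9, Hif3a, Tsc22d3, Sgk1 and Ddit4, and each matched 1 gene among the 41687 rows of the count table, so that 9 of 41687 rows are described. The lungs came from 12 adult mice, 6 wild type (WT) and 6 lacking Bmal1 (KO). Bmal1 is an activator of the circadian clock whose gene carries the symbol Arntl. The labels give C57b/6 for the strain, 8 to 18 weeks for the age and female for the sex of all animals. They do not give the KO allele or where in the body it was deleted, nor a time of collection, a litter or a cage for any mouse. RNA of each mouse was made into a library after pull-down of ribosomal RNA (RiboZero) and another after selection of polyadenylated RNA (PolyA), with n = 6 per genotype in both. Mice 3 to 6 of each genotype were also sequenced without either step (NoSelect, n = 4 per genotype). The input was 200 ng of RNA for RiboZero and PolyA and 15 ng for NoSelect. The libraries of a mouse come from the same lung.

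Glucocorticoids are adrenal steroid hormones that enter cells and bind the receptor, which then moves to the nucleus and raises or lowers the transcription of target genes. Hormone levels in blood follow the time of day and rise with stress, and the circadian clock acts on the adrenal gland as well as on target tissues. In the lung, glucocorticoids drive maturation before birth, dampen inflammation and raise sodium uptake, and the genes followed here include several of the targets most often used to read hormone action.

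Total counts per library ranged from 11638594 to 25801237 in RiboZero, from 29924325 to 41548830 in PolyA and from 74979802 to 115059756 in NoSelect. The lowest count of any of the 9 genes in any library was 71, for Hif3a in RiboZero. Lung markers were abundant in every library: the summed level of 4 alveolar type 2 markers lay between 6389.8 and 14514 CPM (normalised counts scaled to a common library size with TMM factors over all 32 libraries). The NoSelect library of KO mouse 6 carries the tissue label Liver, but its albumin gene Alb stood at 0.391 CPM, against 0.0777 to 0.978 in the other NoSelect libraries, and its surfactant gene Sftpc at 5327 CPM, against 3606 to 4937. KO mouse 6 is labelled female, yet its summed Y-linked genes reached 104 to 190.2 CPM in the 3 preparations, while no library of another mouse exceeded 0.036. Its summed Xist and Tsix, which mark females, stood at 0.948 to 3.35 CPM, while no library of another mouse fell below 250.5. By these genes the animal is male. The KO difference of each of the 9 genes is given with and without KO mouse 6.

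Upstream sequences were examined for the DNA element that the receptor binds, because the members are known as its targets, and for the E-box, the element that Bmal1 and its partner bind. RefSeq promoters of the build GRCm38.p6 were found for 7 of the 9 genes, in 14 versions, and the 250 bases before each annotated start were searched on both strands. The receptor binds as a dimer to a palindrome, searched here as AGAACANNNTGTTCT, and each arm alone (AGAACA, or TGTTCT on the other strand) was searched as well. The E-box was searched as CACGTG. The palindrome was found before 1 start, of Sgk1, and in 3 of 32851 mouse promoters of the same length (0.00913%). An arm was found in 4 of the 14 versions, belonging to Sgk1 and Tsc22d3, and in 16.1% of all promoters. Sgk1 holds more of the 14 versions than any other gene, so the versions are not separate cases. By gene, an arm was found for 2 of 7, and the share of all genes was not computed. The E-box was found in 2 versions, those of Fkbp5 and Sgk1, and in 6.02% of all promoters. These 3 stretches are printed 5′ to 3′ because they hold these matches, with arms, palindrome and E-box in capitals. The stretch of Tsc22d3 ends where the first GENCODE M21 exon begins.
Sgk1, chr10:21993640-21993889, plus strand: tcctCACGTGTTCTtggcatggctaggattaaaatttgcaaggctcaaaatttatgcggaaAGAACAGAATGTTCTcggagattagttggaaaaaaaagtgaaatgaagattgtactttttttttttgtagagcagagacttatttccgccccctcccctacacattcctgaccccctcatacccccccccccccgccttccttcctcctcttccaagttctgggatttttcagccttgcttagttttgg
Fkbp5, chr17:28486150-28486399, minus strand: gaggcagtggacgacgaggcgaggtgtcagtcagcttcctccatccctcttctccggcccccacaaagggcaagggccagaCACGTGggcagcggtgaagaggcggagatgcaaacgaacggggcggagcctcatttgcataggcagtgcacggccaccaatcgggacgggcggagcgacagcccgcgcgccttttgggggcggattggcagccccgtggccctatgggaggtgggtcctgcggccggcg
Tsc22d3, chrX:140600660-140600772, minus strand: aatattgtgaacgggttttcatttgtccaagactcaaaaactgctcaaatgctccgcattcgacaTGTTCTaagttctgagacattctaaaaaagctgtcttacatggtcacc
In the Sgk1 stretch the first run of capitals is an E-box and an arm that share bases, starting 246 and 242 bases before the start, and the second run is the palindrome, whose arms start 189 and 180 bases before it. The E-box of Fkbp5 starts 169 bases and the arm of Tsc22d3 185 bases before the annotated start. In M21 the Sgk1 stretch lies in introns of 5 longer Sgk1 transcripts and the Fkbp5 stretch in introns of 3 longer Fkbp5 transcripts. A match is a run of letters and was not tested as a binding site.

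Levels were compared between genes only per kilobase of merged exons, in WT NoSelect libraries. Tsc22d3, which encodes the leucine zipper protein GILZ, was highest at 85.6 ± 11.0 CPM per kb (SD, n = 4), and Zbtb16, a zinc finger repressor, followed at 79.6 ± 29.4, so that these neighbours did not differ beyond their spread. Klf9, a Krüppel-like repressor, stood at 32.6 ± 4.29 CPM per kb. Ddit4, Sgk1, Hsd11b1 and Nr3c1 lay together at 23.0 ± 3.20, 22.1 ± 2.06, 21.5 ± 2.12 and 20.8 ± 1.11 CPM per kb, within their spreads. Fkbp5 followed at 7.35 ± 3.29 and Hif3a was lowest at 2.48 ± 0.945 CPM per kb (SD, n = 4). The order differed between preparations, which do not hold the same mice, as NoSelect lacks WT mice 1 and 2. In PolyA Klf9 stood at 13.4 ± 3.36 CPM per kb, below Hsd11b1 at 25.9 ± 6.19 as well as below Ddit4 and Sgk1. Zbtb16 followed Tsc22d3 in RiboZero at 48.6 ± 23.9 and was at 18.4 ± 17.3 CPM per kb in PolyA (SD, n = 6 each), where its spread covers the means of Hsd11b1, Ddit4 and Sgk1. WT mice 1 and 2 were low for Zbtb16, at 13.1 and 11.0 CPM in PolyA against 177 to 188 in WT mice 4 to 6. WT mouse 3, which NoSelect holds, stood at 16.8 CPM.

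**Figure D1:**
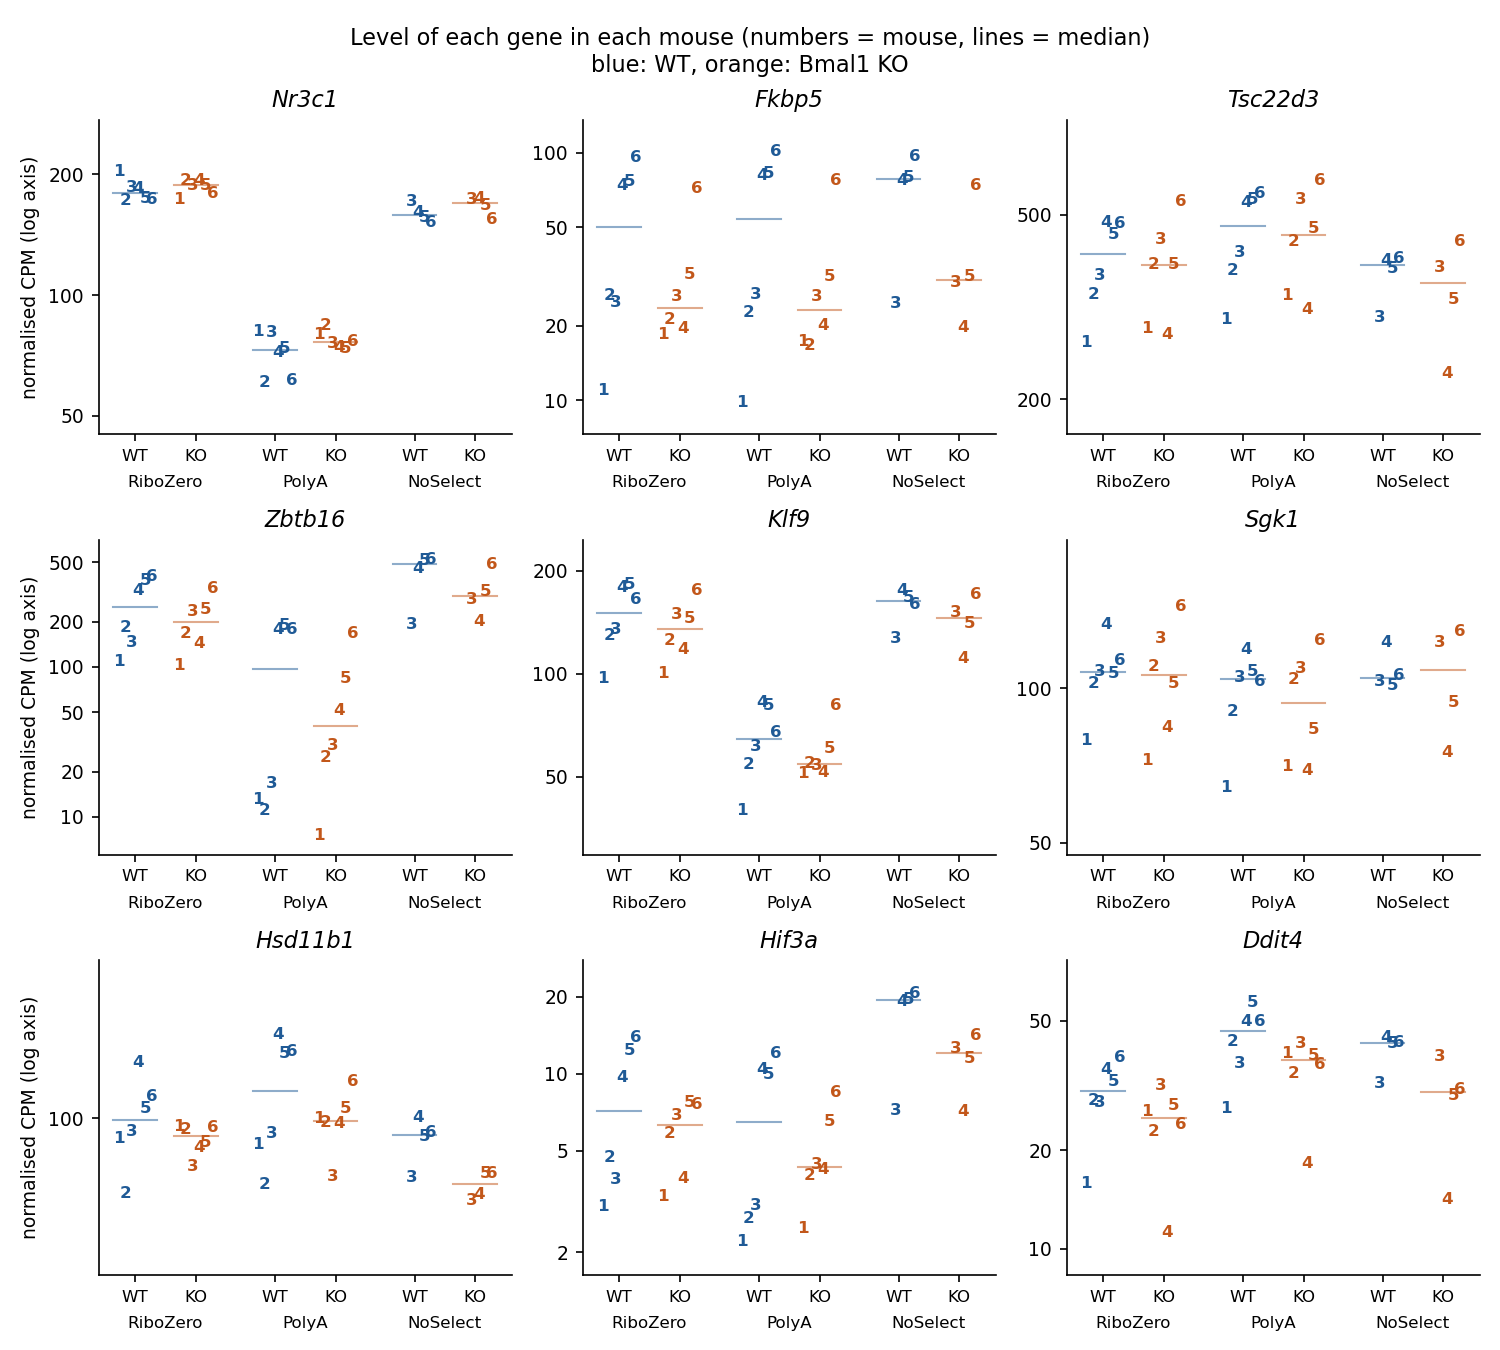
Level of each of the 9 genes in every library, as normalised CPM on a log axis. Numbers are the mice, lines the medians of a group, blue WT and orange KO. Nr3c1 differs little between mice, while Fkbp5, Zbtb16 and Hif3a spread widely within each genotype, and Nr3c1, Klf9 and Zbtb16 sit lower in PolyA than in the other preparations.

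The first comparison asked whether the receptor and its targets differed between KO and WT lung. The deleted gene, Arntl, lay between 27.0 and 33.9 CPM in WT and between 15.2 and 18.7 in KO RiboZero libraries. In PolyA its ranges were 19.6 to 23.6 in WT and 17.0 to 20.9 in KO and so overlapped, and in NoSelect they were 27.5 to 29.4 and 16.6 to 18.7. Its log2 fold change passed edgeR's quasi-likelihood test in all 3 preparations, at -0.83 (adjusted p = 2.46e-05), -0.27 (adjusted p = 0.0262) and -0.69 (adjusted p = 0.00045) in RiboZero, PolyA and NoSelect.

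None of the 9 genes passed this test at an adjusted p under 0.05: 0 of 9 were called in RiboZero, where 3.46% of all tested rows were called, 0 of 9 in PolyA (4.03% of rows) and 0 of 9 in NoSelect (2.15% of rows). At an unadjusted p under 0.05 the counts were 0, 0 and 1 of the 9, beside 16.4%, 18.0% and 15.7% of all tested rows. DESeq2 called 0, 0 and 1 of the 9, the call being Hsd11b1 in NoSelect, beside 5.89%, 7.87% and 5.09% of rows. For each of the 9 genes in each of the 3 preparations the values of WT and KO mice overlapped. The share of all rows that overlap in this way was not computed, so no result is read from this. The log2 fold change of KO over WT was below 0 for 8 of the 9 genes in every preparation, with Nr3c1 above 0. The preparations measure the same mice, so the repeated signs are not separate evidence, and none of these differences passed the test. Without KO mouse 6 the count of genes called stayed at 0 in each preparation. In bulk tissue, fewer cells of a type and less RNA per cell cannot be told apart. The median of the 9 log2 fold changes was -0.13, -0.18 and -0.26 in RiboZero, PolyA and NoSelect, and the median over all tested rows was 0.00 in each.

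The receptor itself was the most even gene of the group. Nr3c1 (chr18:39410545-39519421 in M21) ran from 172 through a median of 179 to 203 CPM in WT and from 173 through 188 to 193 in KO RiboZero libraries (n = 6 each). In PolyA it ran from 60.7 through 72.8 to 81.4 in WT and from 73.5 through 76.3 to 83.8 in KO. Its NoSelect values were 171, 161, 156 and 152 in WT mice 3 to 6 and 173, 174, 167 and 154 in KO mice 3 to 6. The ranges overlapped in each preparation. In PolyA the KO values were the narrower, and the lowest of them lay above the WT median. The log2 fold change was 0.03 in RiboZero (95% interval -0.07 to 0.13), 0.08 in PolyA (-0.08 to 0.23) and 0.06 in NoSelect (-0.06 to 0.18), with edgeR adjusted p-values of 0.844, 0.623 and 0.658. The RiboZero interval thus spans 0.950 to 1.09 times the WT level. The log2 values were 0.04, 0.09 and 0.10 without KO mouse 6.

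Hsd11b1 encodes the enzyme that regenerates active hormone from its inert form inside cells. Its NoSelect values were 78.9, 100.2, 92.9 and 94.3 CPM in WT mice 3 to 6 and 72.0, 73.7, 80.0 and 80.2 in KO mice 3 to 6. KO values lay below WT values except that KO mice 5 and 6 exceeded WT mouse 3. The log2 fold change of -0.26 (SE 0.0742) had an edgeR adjusted p of 0.128, while DESeq2 gave an adjusted p of 0.0307. Without WT mouse 3 the edgeR value was -0.33 with an adjusted p of 0.0366. In RiboZero and PolyA the log2 fold changes were -0.12 and -0.18, with edgeR adjusted p-values of 0.599 and 0.544. Leaving out KO mouse 6, they were -0.14 in RiboZero, -0.22 in PolyA and -0.28 in NoSelect. Hsd11b1 overlaps Lamb3 on the opposite strand in M21, and the strand setting of the counting is not given in the sources used here, so reads of the overlap may have been assigned to either gene. Lamb3 had a median count of 2094.5 in WT RiboZero libraries. Fkbp5 and Hif3a also have annotated genes on the opposite strand. Gm22146, opposite to Fkbp5, had a median count of 0 in WT RiboZero libraries. No count was found for the others by symbol, so the size of this limit for Fkbp5 and Hif3a is not known. Whether exons overlap was not examined for any of these genes.

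Fkbp5 encodes a co-chaperone that the receptor induces and that lowers the receptor's affinity for hormone. In PolyA its level was 9.83, 22.6, 26.7, 81.0, 82.2 and 101 CPM in WT mice 1 to 6, and 17.3, 16.7, 26.2, 20.1, 31.8 and 77.0 in KO mice 1 to 6. WT mice 4, 5 and 6 and KO mouse 6 were high, and the other 8 mice stayed at or below 31.8 CPM. The same mice were high in RiboZero, at 73.9, 76.3 and 95.8 CPM for WT mice 4, 5 and 6 and 72.1 for KO mouse 6, where the other 8 mice lay between 11.0 and 32.2. The log2 fold change of KO over WT was -0.71 (SE 0.501) in RiboZero, -0.81 (SE 0.552) in PolyA and -0.84 (SE 0.482) in NoSelect, with edgeR adjusted p-values of 0.538, 0.477 and 0.458. Without KO mouse 6 these were -1.14, -1.29 and -1.36, with edgeR adjusted p-values of 0.248, 0.219 and 0.155. The PolyA interval, -2.01 to 0.38, leaves room for KO levels from 0.249 to 1.30 times those of WT.

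Zbtb16 encodes PLZF, a transcriptional repressor that is among the genes most strongly induced by glucocorticoids in many cell types. Its PolyA level was 13.1, 11.0, 16.8, 177, 188 and 177 CPM in WT mice 1 to 6 and 7.56, 24.9, 29.9, 51.4, 84.1 and 168 in KO mice 1 to 6. WT mice fell into 3 low and 3 high values with none between 16.8 and 177 CPM, whereas the KO values ran from below the lowest WT value to just under the high ones with no such gap. In RiboZero the WT values were 109, 183, 146, 321, 377 and 404 CPM, again with mice 4, 5 and 6 high, but over a 3.70-fold instead of a 17.1-fold range. The log2 fold change of KO over WT was -0.34 (SE 0.350), -0.71 (SE 0.847) and -0.40 (SE 0.343) in RiboZero, PolyA and NoSelect, and the edgeR adjusted p-values were 0.694, 0.720 and 0.635. Without KO mouse 6 these values were -0.54, -1.32 and -0.66 (edgeR adjusted p = 0.487, 0.454 and 0.361).

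Hif3a, an inhibitory member of the hypoxia-inducible factor family, was the least abundant gene. In PolyA it was 2.2, 2.72, 3.04, 10.4, 9.94 and 12 CPM in WT mice 1 to 6 and 2.48, 4.0, 4.42, 4.21, 6.49 and 8.47 in KO mice 1 to 6. The WT mice again separated into the same 3 low and 3 high values, and KO mouse 6 was the highest of its genotype. The log2 fold changes of KO over WT were -0.44, -0.46 and -0.56 (SE 0.378, 0.451 and 0.330) in RiboZero, PolyA and NoSelect, with edgeR adjusted p-values of 0.627, 0.643 and 0.474. Leaving out single libraries gave -0.61 to -0.21, -0.66 to -0.20 and -0.81 to -0.39. The values were -0.53, -0.66 and -0.68 without KO mouse 6.

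Klf9 encodes a repressor of clock and growth genes that responds to the hormone. It ran from 40.0 through a median of 64.3 to 82.5 CPM in WT and from 51.1 through 54.4 to 80.5 in KO PolyA libraries (n = 6 each). WT mouse 1 was lowest, and WT mouse 4 and KO mouse 6 were the highest of their genotypes. Its log2 fold changes of KO over WT were -0.13, -0.17 and -0.14, (SE 0.162, 0.164 and 0.136), with edgeR adjusted p-values of 0.763, 0.645 and 0.687 in RiboZero, PolyA and NoSelect. Leaving out single libraries gave -0.23 to -0.05, -0.27 to -0.08 and -0.23 to -0.03, and without KO mouse 6 the values were -0.22, -0.26 and -0.23.

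Tsc22d3, Sgk1 and Ddit4 act in signalling, and varied less between mice than Fkbp5, Zbtb16 and Hif3a. Tsc22d3, whose product GILZ restrains inflammatory signalling, ran from 297 through 472 to 555 CPM in WT and from 313 through 453 to 594 in KO PolyA libraries. Sgk1, a kinase that keeps epithelial sodium channels at the cell surface, ran from 64.0 through 104 to 119 CPM in WT and from 69.2 through 93.7 to 124 in KO. Ddit4, an inhibitor of the growth kinase mTORC1, ran from 26.9 through 46.4 to 56.7 CPM in WT and from 18.2 through 37.8 to 42.4 in KO (n = 6 each). WT mouse 1 was lowest of the WT mice for all 3, and KO mouse 4 was lowest of the KO mice for all 3. The log2 fold changes of KO over WT were -0.05 for Tsc22d3, -0.11 for Sgk1 and -0.36 for Ddit4 in PolyA, with edgeR adjusted p-values of 0.921, 0.781 and 0.394. In RiboZero and NoSelect they were -0.04 and -0.11 for Tsc22d3, -0.02 and -0.04 for Sgk1 and -0.33 and -0.52 for Ddit4. The lowest edgeR adjusted p among these was 0.387, for Ddit4 in NoSelect. Without KO mouse 6 the values in RiboZero, PolyA and NoSelect were -0.16, -0.14 and -0.25 for Tsc22d3, -0.12, -0.19 and -0.15 for Sgk1 and -0.33, -0.36 and -0.56 for Ddit4. The sign of the Tsc22d3 difference in every preparation, and of Sgk1 in RiboZero and NoSelect, changed when some single libraries were left out, so no direction is read from them.

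**Figure D2:**
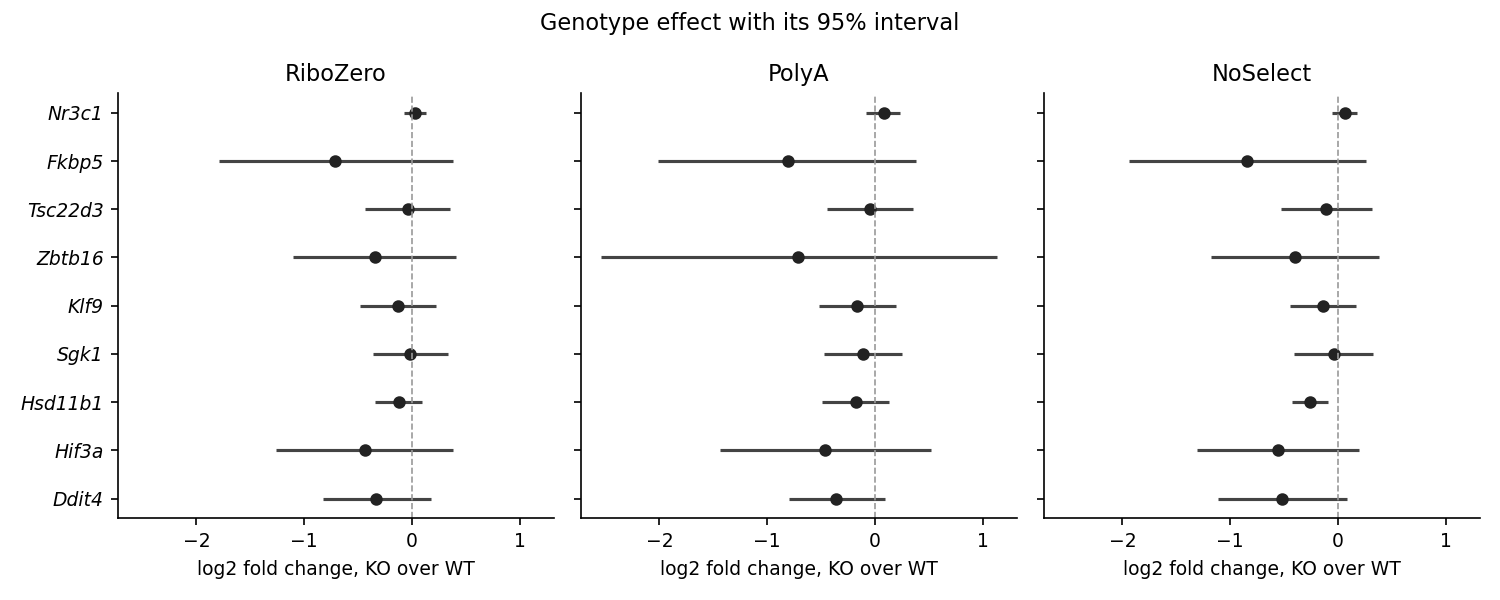
Log2 fold change of KO over WT for each gene and preparation, as points with 95% intervals from edgeR's quasi-likelihood fit. The intervals are narrow around 0 for Nr3c1 and wide for Fkbp5 and Zbtb16, and the interval of Hsd11b1 in NoSelect, -0.43 to -0.09, is the one that leaves out 0.

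Differences between mice of the same genotype, which set the error of these comparisons, were examined next. The standard deviation (SD) of log2 CPM within a genotype was computed for every row with a mean of at least 5 CPM, 12492 rows in PolyA, whose median SD was 0.124. Zbtb16 had an SD of 1.82, higher than 99.7% of these rows. Fkbp5, at 1.11, was above 99.3% and Hif3a, at 0.898, above 99.0% of them. Ddit4 (0.422), Tsc22d3 (0.360), Sgk1 (0.324), Klf9 (0.322) and Hsd11b1 (0.281) were above 88.8% to 95.8% of rows. Nr3c1, at 0.136, was above 55.8%. The spread in PolyA was thus above that of 88.8% of rows or more for every gene but the receptor, which lay near the middle. It was largest for Zbtb16, Fkbp5 and Hif3a. RiboZero gave the same contrast over 12120 rows, with SDs of 1.01 for Fkbp5, 0.747 for Hif3a and 0.704 for Zbtb16, and 0.0782 for Nr3c1, which was above 21.1% of rows. In NoSelect, over 8018 rows with a median SD of 0.0788, Fkbp5 had 0.844, Zbtb16 0.609 and Nr3c1 0.0802. Hif3a, with 0.598 there, was not among these rows. The minimum of 5 CPM applies to the mean log2 CPM scaled within the preparation, which is lower in NoSelect than the CPM on the common scale printed here. Ddit4 and Tsc22d3 were above 97.6% and 95.1% of rows in RiboZero and 98.6% and 97.0% in NoSelect. Hsd11b1 was lower, above 78.5% and 74.3%.

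**Figure D3:**
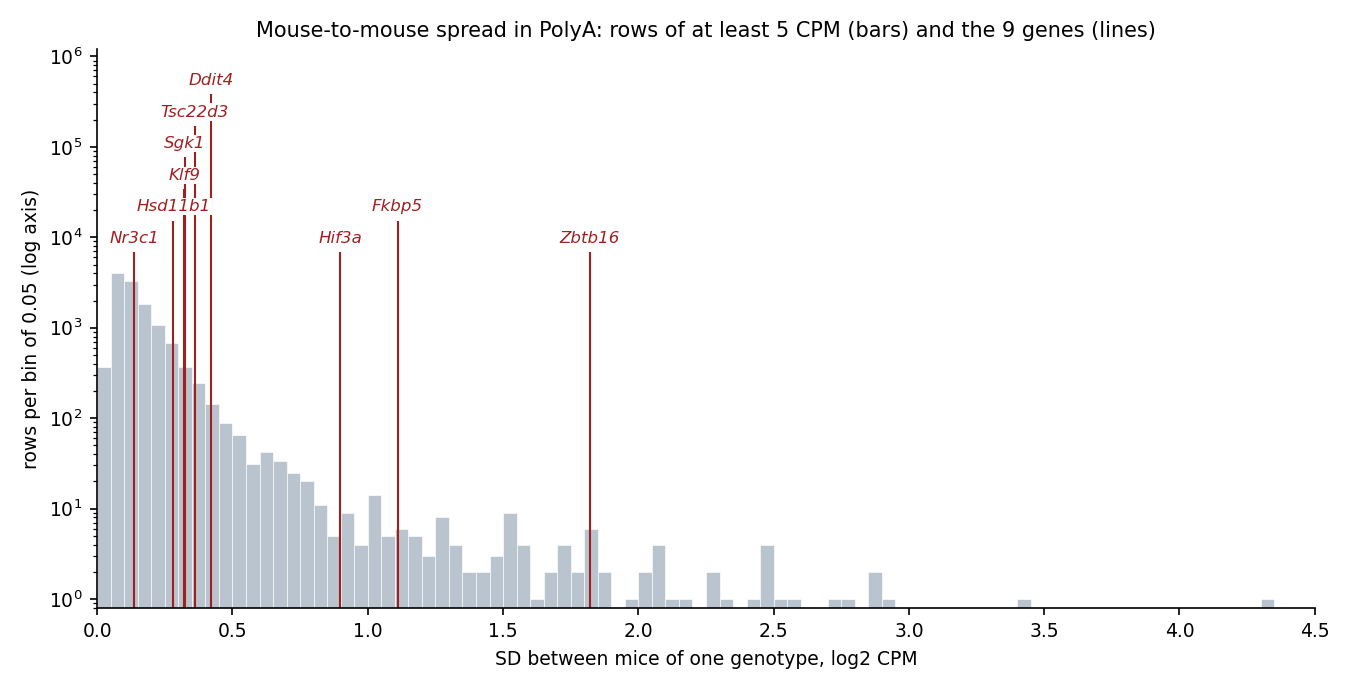
Distribution over rows of at least 5 CPM of the SD of log2 CPM between PolyA libraries of one genotype, with the number of rows per bin on a log axis. Lines mark the 9 genes: Nr3c1 at 0.136 lies in the bulk, and Hif3a, Fkbp5 and Zbtb16 lie in the tail at 0.898, 1.11 and 1.82.

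WT mice 4, 5 and 6 and KO mouse 6 had the highest PolyA levels of Fkbp5, Zbtb16, Hif3a, Klf9 and Hsd11b1. Relative to the median of the 12 mice in PolyA, WT mice 4, 5 and 6 stood at 1.62, 1.64 and 1.93 on the log2 scale for Fkbp5, at 2.12, 2.21 and 2.12 for Zbtb16 and at 1.27, 1.20 and 1.48 for Hif3a. KO mouse 6 stood at 1.54, 2.05 and 0.97 for these genes. WT mouse 1 stood at -1.43 for Fkbp5 and -0.98 for Hif3a, and KO mouse 1 at -2.43 for Zbtb16. KO mouse 4 differed from this order in that its Ddit4 was lowest of all, at -1.11, while its Zbtb16 was at 0.34. For Tsc22d3, Sgk1 and Ddit4 the high mice were not the same set. KO mouse 3 stood at 0.25 for Tsc22d3, against 0.23 in WT mouse 4, and at 0.07 for Sgk1, against -0.01 in WT mouse 6. For Ddit4 it stood at 0.11, against -0.10 in KO mouse 6. Nr3c1 stayed between -0.31 and 0.16 in all 12 mice.

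**Figure D4:**
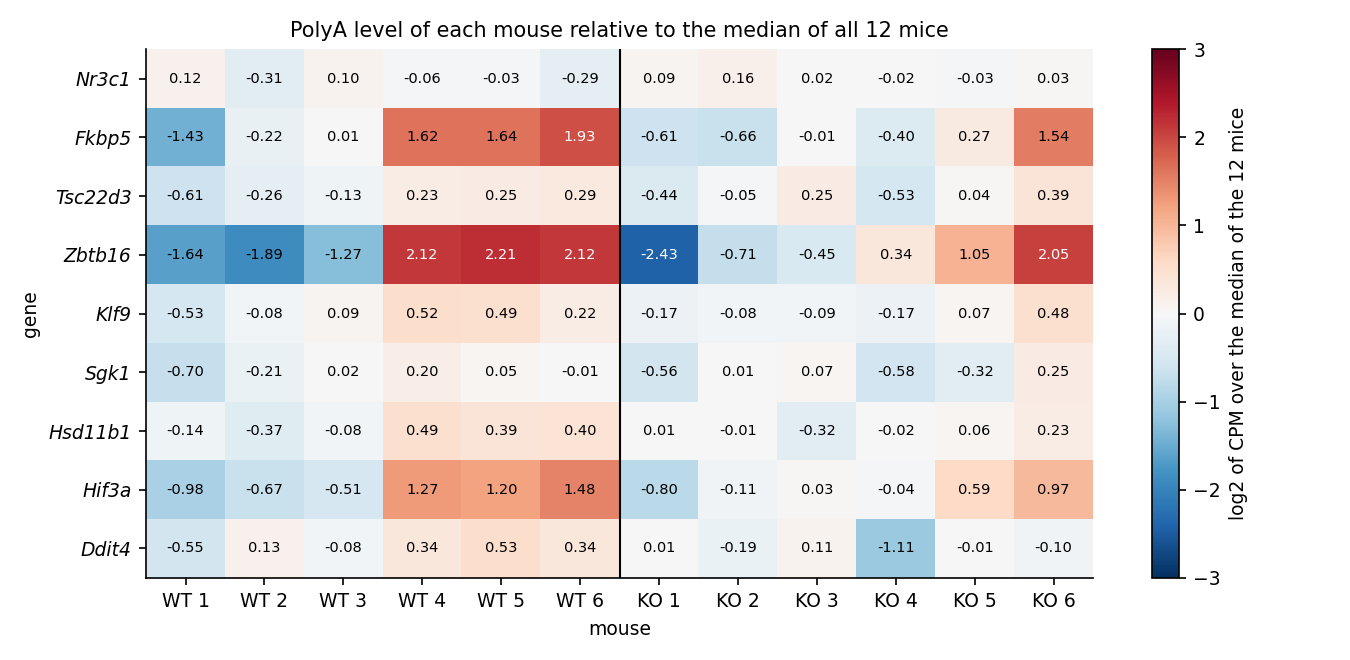
PolyA level of the 9 genes in each mouse as log2 of the ratio to the median of the 12 mice. Fkbp5, Zbtb16 and Hif3a are high in WT mice 4, 5 and 6 and in KO mouse 6, and Nr3c1 stays between -0.31 and 0.16 throughout.

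Markers of other tissues that a lung sample can carry are given beside these values. The summed level of 6 adipocyte markers was 38.4, 56.3 and 31.5 CPM in PolyA libraries of WT mice 1, 2 and 3 and 12, 30.6 and 5.12 in WT mice 4, 5 and 6, and ran from 11.6 to 52.2 in KO, with 42.0 in KO mouse 6. The 4 cardiomyocyte markers summed to 55.1 to 366 CPM in WT and 5.01 to 282 in KO, and the 4 neutrophil markers to 21.3 to 36.2 in WT and 20.3 to 104 in KO. No marker of these 3 lists was at 0 in a whole group. Their part in the differences between mice was not tested. The clock repressor Nr1d1 stood at 21.5, 40.9, 19.0, 17.2, 19.6 and 21.3 CPM in PolyA of WT mice 1 to 6 and at 0.294 to 0.906 in KO. The clock gene Per1 stood at 132, 204, 199, 191, 187 and 198 CPM in PolyA of WT mice 1 to 6. Per1 is also on the list of genes induced by glucocorticoids described below, so it does not read the clock alone. The part of collection time was not tested.

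Libraries of the same mouse agreed on these differences. Deviations of log2 CPM from the genotype mean were compared between PolyA and RiboZero over the 12 mice, with two-sided permutation within genotype and Benjamini-Hochberg adjustment over the 9 genes. The relation passed for 8 of 9 genes. The share of all rows that pass was not computed, so the count is not read as particular to these genes. Over 11586 rows, the deviations of PolyA and RiboZero libraries of the same mouse correlated at 0.498 to 0.817. No pooled coefficient is given for Fkbp5, Zbtb16, Hif3a, Tsc22d3 and Hsd11b1, whose WT PolyA values separate most widely into 3 and 3. For Klf9 Pearson's r was 0.921 (permutation adjusted p = 0.000135) and Spearman's rho 0.93 (permutation adjusted p = 0.000315). For Sgk1 they were 0.941 (permutation adjusted p = 9e-05) and 0.923 (permutation adjusted p = 0.00093), and for Ddit4 0.966 (permutation adjusted p = 0.000345) and 0.839 (permutation adjusted p = 0.00247). Without the 2 mice farthest from the median, r was 0.839, 0.943 and 0.784. For Nr3c1 r was 0.562 (permutation p = 0.101, adjusted 0.101) and rho 0.455 (permutation p = 0.167, adjusted 0.167), and r was 0.203 without the 2 farthest mice. Without KO mouse 6 the relation again passed for 8 of 9 genes, and r was 0.902 for Klf9, 0.928 for Sgk1 (permutation adjusted p = 0.000553 for both), 0.966 for Ddit4 (permutation adjusted p = 0.000553) and 0.561 for Nr3c1 (permutation p = 0.119, adjusted 0.119).

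Whether the genes rose and fell together between mice was asked for all 36 pairs in PolyA in the same way. After adjustment over the 36 pairs, r passed for 19 pairs, all of them positive, and for 0 of the 8 pairs that include Nr3c1. The share of pairs of other rows that pass was not computed, so the counts are not read as particular to these genes. The count was 17 in RiboZero, and 15 in PolyA without KO mouse 6. Most of these pairs include a gene whose WT mice fall into separate sets, and for such pairs the relation partly repeats that separation. Over the WT mice alone 4 pairs passed and over the KO mice alone 0, with 6 mice each. Of the 6 pairs among Nr3c1, Klf9, Sgk1 and Ddit4, 1 passed: Klf9 with Sgk1 had r = 0.798 (permutation p = 0.00167, adjusted 0.00751) and rho = 0.748 (permutation p = 0.00442, adjusted 0.0159). Without the 2 mice farthest from the median r was 0.563, so that part of this relation rests on them. Many other rows were closer to either gene. By the mean of r in PolyA and RiboZero over 11386 rows, Sgk1 ranked 205 for Klf9 and Klf9 ranked 96 for Sgk1. In RiboZero r for Klf9 and Sgk1 was 0.867 (permutation adjusted p = 0.000828) and rho 0.846 (permutation adjusted p = 0.00472). In PolyA r for this pair was 0.946 over the 6 WT mice (permutation adjusted p = 0.0245) and 0.646 over the 6 KO mice (permutation adjusted p = 0.415). For Spearman's rho the permutation adjusted p was 0.119 over the WT mice, where rho was 0.943, and 0.306 over the KO mice.

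The genes whose pattern over the 12 mice was most like that of each member were ranked by the mean of r in PolyA and r in RiboZero over 11386 rows. The coefficients serve only to rank the genes. They come from the same 12 mice and libraries, and for Fkbp5, Zbtb16, Hif3a, Tsc22d3 and Hsd11b1 they include the separation of the WT mice into 3 and 3. For Fkbp5 the closest was Glul, glutamine synthetase, at 0.974, whose PolyA level was 220.5, 299, 279, 439, 445 and 432 CPM in WT mice 1 to 6. Epb41, a protein of the membrane skeleton, followed at 0.963. Zbtb16 and Hif3a were each other's closest gene, at 0.969. The forkhead factor gene Foxo3 was next for Zbtb16 at 0.960, and Epb41 next for Hif3a at 0.942. Tsc22d3 was closest to Rgcc (0.961) and to the semaphorin gene Sema7a (0.956), Klf9 to Sgms1, a sphingomyelin synthase (0.957), and Entpd1 (0.944), and Sgk1 to the topoisomerase gene Top1 (0.930) and Phka1 (0.917). Hsd11b1 was closest to the dipeptidase gene Dpep1 (0.923) and to H6pd (0.906), whose enzyme makes the cofactor that the Hsd11b1 enzyme uses. Ddit4 was closest to Nfkbia, the inhibitor of NF-κB (0.931), and Gadd45g (0.888). Glul and Nfkbia are themselves on the list of induced genes described next. The closest genes to Nr3c1 were Ankrd50 (0.920) and Nrp1 (0.849), and none of the other 8 members had a mean r above 0 with it.

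Other genes of the pathway were described by lists. Of 24 further genes induced by glucocorticoids, 23 had a mean of at least 5 CPM in WT PolyA libraries, and the median ratio of the highest to the lowest WT mouse was 2.02. Over all 12552 rows at that level it was 1.25, and over the 9 members 2.06. WT mouse 1 was lowest for 17 of the 23 genes (73.9%), for 6 of the 9 members and for 17.3% of all rows. This count was chosen after the values of the members were seen. The list did not follow the order of Fkbp5 throughout. The highest WT mouse was mouse 4 for 3 of the 23 genes, mouse 5 for 8 and mouse 6 for 4, but mouse 2 for 3 and mouse 3 for 5. Of all rows, 18.4%, 22.3%, 13.5%, 11.7%, 11.4% and 22.7% were highest in WT mice 1 to 6. The phosphatase gene Dusp1 and the mRNA decay gene Zfp36, named after their values were seen, were lowest in WT mouse 6 and highest in WT mouse 3.

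The counts of called genes in these lists stand against 3.46%, 4.03% and 2.15% of all rows called between KO and WT in RiboZero, PolyA and NoSelect. The induced list had 0 of 24 genes called in RiboZero and PolyA and 1 in NoSelect, the cell cycle inhibitor Cdkn1c, which rose from 14.8 ± 1.70 to 20.6 ± 1.95 CPM (SD, n = 4 each; log2 0.48, edgeR adjusted p = 0.0388). Its log2 values of 0.32 in RiboZero and 0.36 in PolyA had edgeR adjusted p-values of 0.158 and 0.0894. The median log2 fold change of this list was -0.17, -0.25 and -0.30 in RiboZero, PolyA and NoSelect, against 0.00 over all rows. Of 17 genes for chaperones and coregulators of the receptor, 0 were called in any preparation, with a lowest edgeR adjusted p of 0.111. Of 6 tested genes for steroid conversion, transport and the related mineralocorticoid receptor, 0 were called in RiboZero, 2 in PolyA and 0 in NoSelect. Srd5a1, a steroid reductase, rose from 1.24 ± 0.155 to 1.79 ± 0.200 CPM (SD, n = 6 each; log2 0.49, edgeR adjusted p = 0.0373), and the efflux pump gene Abcb1b fell from 3.25 ± 0.206 to 2.24 ± 0.501 (log2 -0.56, edgeR adjusted p = 0.0440). In RiboZero and NoSelect the log2 values were 0.37 and 0.38 for Srd5a1 (edgeR adjusted p = 0.280 and 0.443) and -0.37 and -0.60 for Abcb1b (edgeR adjusted p = 0.367 and 0.0859), and no difference between preparations was shown.

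Among genes known to be lowered by glucocorticoids, Vcam1 and Mmp9 differed. Vcam1, an adhesion molecule of endothelium, fell in all 3 preparations. It went from 60.9 ± 4.81 to 42.5 ± 3.80 CPM in RiboZero (log2 -0.52, edgeR adjusted p = 0.000773) and from 60.4 ± 5.96 to 40.1 ± 4.65 in PolyA (SD, n = 6 each; log2 -0.62, edgeR adjusted p = 0.00210). In NoSelect it went from 56.9 ± 5.09 to 38.7 ± 6.31 (SD, n = 4 each; log2 -0.56, edgeR adjusted p = 0.0470). No KO library reached the lowest WT library of Vcam1 in any preparation. The 4 endothelial markers, beside which this gene is read, summed to 1409.8 to 1816 CPM in WT and 1603 to 1939 in KO RiboZero libraries. Mmp9, a matrix protease of neutrophils, rose in RiboZero from 6.59 ± 1.24 to 11.9 ± 3.83 CPM (SD, n = 6 each; log2 0.86, edgeR adjusted p = 0.0324) and was not called in PolyA (0.56, edgeR adjusted p = 0.140) or NoSelect (0.77, edgeR adjusted p = 0.0551). The 4 neutrophil markers ran from 19.8 to 32.5 CPM in WT and from 17.0 to 76.0 in KO RiboZero libraries, and their part in the Mmp9 difference was not tested. In all, 2 of 11 tested genes of this list were called in RiboZero, 1 of 13 in PolyA and 1 of 11 in NoSelect. The median log2 fold change of the list was -0.15, -0.21 and -0.00.

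Of 6 genes for epithelial sodium uptake, the process in which Sgk1 acts, 1 was called in RiboZero and 0 in PolyA and NoSelect. Scnn1a, a channel subunit, rose from 169 ± 9.43 to 204 ± 17.3 CPM (SD, n = 6 each; log2 0.27, edgeR adjusted p = 0.0209). Its values of 0.09 in PolyA and 0.20 in NoSelect had edgeR adjusted p-values of 0.619 and 0.257. Of 15 hypoxia genes, listed because Hif3a and Ddit4 belong to that response, 2, 2 and 1 were called, all higher in KO. The peptide hormone gene Adm had log2 fold changes of 0.76, 0.78 and 0.77 in the order RiboZero, PolyA, NoSelect (edgeR adjusted p = 0.0338, 0.00410 and 0.0181), and Ankrd37 had 0.95 and 0.72 in RiboZero and PolyA (edgeR adjusted p = 0.0267 and 0.0373). Hif3a and Ddit4, whose values were below 0 in all 3 preparations, did not pass. Of 9 clock genes used as a reference, 6 were called in each preparation, among them Nr1d1 with log2 fold changes of -4.86, -5.40 and -4.77 (edgeR adjusted p = 3.33e-06, 7.93e-07 and 1.5e-05). In PolyA the related repressor Nr1d2 had -3.52, and the clock activator Npas2 and the repressor Cry1 had 1.80 and 1.52 (edgeR adjusted p = 1.85e-07 for each).

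The last comparison asked how the measured level of these genes differed between preparations. Preparation and the amount of input RNA cannot be told apart in the comparisons with NoSelect. These fits have genotype but not the mouse as a term, so the libraries of a mouse count as separate samples, and a fit with the mouse as a block was the alternative. Genes were called here where the adjusted p was under 0.05 and the level differed by a log2 of 1 or more. Between PolyA and RiboZero, 3 of the 9 genes were called, all lower in PolyA, where 21.8% of all tested rows were called in either direction. Between PolyA and NoSelect, 4 of 9 were called, all lower in PolyA (24.2% of rows). Between RiboZero and NoSelect, 1 of 9 was called, lower in RiboZero (3.79% of rows).

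Nr3c1, Klf9 and Zbtb16 were the genes called lower in PolyA against both other preparations. For Nr3c1 the log2 difference of PolyA from RiboZero was -1.31 (SE 0.0458, edgeR adjusted p = 1.08e-18), and the ratio in single mice lay between 0.354 and 0.461 in all 12. For Klf9 it was -1.21 (SE 0.122, edgeR adjusted p = 1.75e-09), with ratios between 0.362 and 0.512 in all 12 mice. Against NoSelect the differences were -1.12 for Nr3c1 and -1.27 for Klf9. For both genes the ratio was thus similar in every mouse, whether the mouse was high or low.

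The ratio of Zbtb16 differed between mice. The ratio of PolyA to RiboZero was 0.119, 0.0600, 0.116, 0.551, 0.498 and 0.437 in WT mice 1 to 6 and 0.0735, 0.149, 0.127, 0.360, 0.351 and 0.506 in KO mice 1 to 6. The mice with the highest RiboZero levels, WT mice 4, 5 and 6 and KO mouse 6, had the 4 highest ratios. KO mouse 4 had a ratio of 0.360 at a RiboZero level of 143 CPM, and WT mouse 2 a ratio of 0.0600 at 183 CPM, so the level alone did not order the ratios. The log2 difference of PolyA from RiboZero was -1.57 (SE 0.485, edgeR adjusted p = 0.00474), while a fit that blocked on the mouse gave -2.14 (SE 0.293, edgeR adjusted p = 2.97e-06). The row sums all transcripts of the gene, of which M21 lists 2, both protein coding, so which transcript differed was not analysed here. For Fkbp5 the ratios of PolyA to RiboZero lay between 0.788 and 1.1 across low and high mice.

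**Figure D5:**
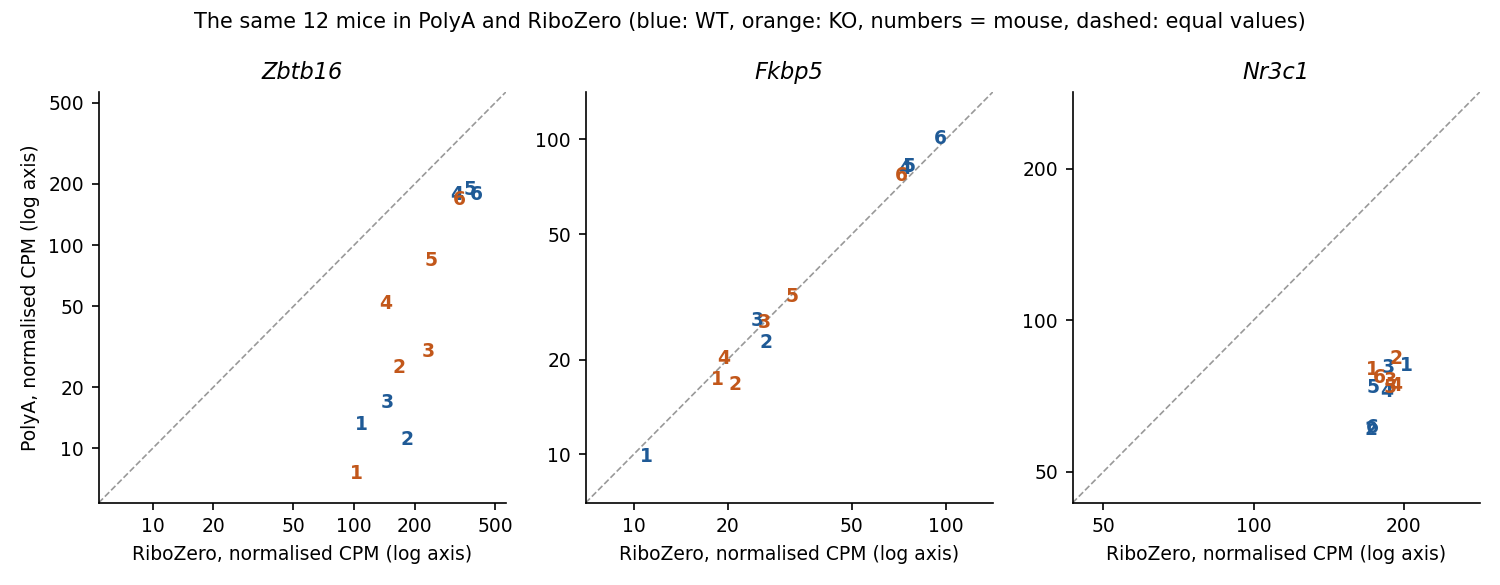
PolyA against RiboZero level of Zbtb16, Fkbp5 and Nr3c1 in the 12 mice, as normalised CPM on log axes. Numbers are mice, blue WT and orange KO, and the dashed line marks equal values. Zbtb16 falls below the line by a ratio between 0.0600 and 0.551 that differs between mice, Fkbp5 lies along it and Nr3c1 lies below it by a nearly constant ratio.

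Hif3a was called lower in PolyA than in NoSelect (-1.22, SE 0.313, edgeR adjusted p = 0.00135) and lower in RiboZero than in NoSelect (-1.03, SE 0.270, edgeR adjusted p = 0.00372). NoSelect libraries lack mice 1 and 2, which had low Hif3a. Blocking on the mouse, the values were -0.93 and -0.79, which no longer reached a log2 of 1, while the edgeR adjusted p-values were 2.15e-07 and 9.25e-08. Within each of the 8 mice measured by both, the ratio of RiboZero to NoSelect lay between 0.505 and 0.671. The other genes kept their level more closely. Tsc22d3, Sgk1, Hsd11b1, Ddit4 and Fkbp5 were called in none of the 3 comparisons. Their largest difference was that of Ddit4, which was higher in PolyA than in RiboZero by a log2 of 0.55 (edgeR adjusted p = 0.00291), with ratios of 1.29 to 1.74 in all 12 mice. For Fkbp5 the difference of PolyA from RiboZero was 0.03 (95% interval -0.77 to 0.82), and -0.01 with median-of-ratios scaling.

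The KO effect itself was compared between preparations by the interaction of genotype and preparation. None of the 9 genes passed: 0 of 9 between PolyA and RiboZero, 0 of 9 between PolyA and NoSelect and 0 of 9 between RiboZero and NoSelect, and 0% of all tested rows were called in each. At an unadjusted p under 0.05 the counts were 0 of the 9 genes in each and 331, 412 and 244 of all rows, and DESeq2 called 0 of the 9 genes and 11, 13 and 9 rows. These rows at an unadjusted p under 0.05 are 1.82%, 2.24% and 1.39% of those tested, below the 5% that this threshold allows by chance. The fits have no term for the mouse although they compare libraries of the same mice, so a count of 0 from them is a weak statement. With the mouse as a term the rows at an unadjusted p under 0.05 were 941, 1556 and 731, and 0 of the 9 genes and 1 row in each comparison were called. The interaction log2 values of the 9 genes ranged from -0.34 to 0.07, -0.34 to 0.14 and -0.04 to 0.19, respectively.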

How the data were processed

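The authors deposited estimated counts for 41687 rows in all 32 libraries as a single table. Salmon 1.4.0, UMI-tools 1.1.1 and the build GRCm38 are named in the submitters' processing notes. The annotation, the strand setting and the use of molecular identifiers are not given in the sources used here. Of the deposited estimated counts, 12.81% were not whole, and all were rounded. Over 72 pairs of replicates, chi-square per degree of freedom ran from 7.02 to 69.9, so none was a repeat. Mice were numbered as separate animals per the labels.

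All rows were fitted in R 4.3.3 with edgeR 4.0.16 (TMM scaling, filterByExpr, glmQLFit, glmQLFTest, Benjamini-Hochberg adjustment over all rows tested), KO against WT within each preparation, and preparations with genotype but not the mouse as a covariate. Fits were checked on simulated counts with independent libraries and the same dispersion for all rows. That check covers neither libraries of the same mouse nor the wide spread of genes such as Zbtb16. Printed levels are CPM with TMM factors over all 32 libraries. Relations between mice used 100000 permutations of log2 CPM, computed with prior count 2. The smallest p these can give is 1e-05. Intervals cover 95%. Gene positions are from GENCODE M21. DESeq2 1.42.0, other scaling and filters, blocks, mice 3 to 6 alone, removal of Lars2 and mitochondrial rows, and left-out libraries were the alternatives.

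The preparations are paired by mouse, since the labels number the animals. Their deviations correlated at 0.411 to 0.825, each most with its own mouse (12 of 12, 8 of 8 and 8 of 8).

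The members, lists and tests were chosen with earlier results of these data known. Named genes are the members, Arntl, up to 4 called genes per list with the largest mean change, and the 2 closest genes per member.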

Additional observations from a re-analysis of the deposited data

Results flagged for a closer look

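In 54 groups of 4 or 6 libraries, 1 per gene, preparation and genotype, the highest and lowest values were compared with their neighbours by Dixon's criterion, which picks about 1 in 20 groups by chance. It picked 6 values. KO mouse 6 was far above the other KO mice for Fkbp5, at 72.1 CPM in RiboZero and 77.0 in PolyA, and for Klf9, at 80.5 in PolyA. This is the mouse whose sex-linked genes go against its label. WT mouse 3 was far below the other WT mice in NoSelect for Hif3a, at 7.18 CPM, and for Ddit4, at 32.0. NoSelect holds WT mice 3 to 6, of which mouse 3 is the only one from the low set of WT mice for Hif3a. The WT mice did not separate in this way for Ddit4. Its widest gap in WT PolyA libraries, from 26.9 to 37.0 CPM, left mouse 1 alone below. KO mouse 4 was far below the other KO mice for Ddit4 in PolyA, at 18.2 CPM. The part of sex in these values was not tested.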

How the results depend on the processing

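Of the recomputed counts, 86 stayed within 1.5 times the reported one and 6 did not. In NoSelect, 1 gene instead of 0 was called between KO and WT by DESeq2, and 0 to 1 when single libraries were left out. This was Hsd11b1, at -0.26 in DESeq2. Between RiboZero and NoSelect, 0 genes instead of 1 were called with the mouse as a replicate block, and 0 with mice 3 to 6 alone. Of the pairs of genes varying together, 4 passed in WT alone and 0 in KO alone, where 6 mice limit the test. Single log2 values changed sign where they were near 0. Fkbp5 between PolyA and RiboZero was -0.02 in DESeq2, -0.01 with median-of-ratios factors and -0.02 with the block, and between PolyA and NoSelect 0.04 with the block and 0.04 with mice 3 to 6. Between RiboZero and NoSelect, Klf9 was 0.05 and Sgk1 0.10 with the block, and 0.05 and 0.10 with mice 3 to 6. Leaving out single libraries gave KO differences of Tsc22d3 from -0.16 to 0.04 in RiboZero, -0.14 to 0.03 in PolyA and -0.25 to 0.04 in NoSelect, and of Sgk1 from -0.12 to 0.07 in RiboZero and -0.15 to 0.09 in NoSelect. The cause was not tested.

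WT and KO mice that carry the same number are different animals, whose deviations correlated at -0.135 to 0.255, and each library was closest to its own number in 3 of 6, 2 of 6 and 1 of 4 cases. With that number as a replicate block, 0 of the 9 genes were called in any preparation, and 372, 617 and 103 of all rows in RiboZero, PolyA and NoSelect in place of 579, 694 and 368. The mouse block ended the Hif3a calls and changed no other call between preparations. P-values measure the spread between mice of unstated litter and collection time. DESeq2 called 985, 1355 and 871 of all rows. The pathway lists were not recomputed under these alternatives.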
